A study of Mus musculus with 12 samples.

Results

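Plasminogen activation in lens cells (LCs) after lens fiber cell removal was followed through 5 genes, chosen by their symbols among the 45859 genes of each deposited table. These are the activators Plau and Plat, the receptor Plaur, and the inhibitors Serpine2 and Serpinb2. All 5 were rows of every table, although Plaur and Serpinb2 were listed at 0 in some 0 h libraries. RNA came from a mouse model of cataract surgery, in which the fiber cells are taken out through the cornea and the capsule keeps its attached epithelium. Capsules of 2-month-old mice were collected at 0 h or 24 h post cataract surgery (PCS) from WT C57BL/6 mice and from mice lacking β8 integrin in the lens (β8ITG-cKO). There were 3 libraries in each of the 4 conditions, 12 in all, and each library pooled 5 capsules. The β8ITG-cKO mice carried a floxed Itgb8 exon and the MLR10-cre transgene, which is active in all lens cells from early lens development, on a mixed C57BL/6 and 129S1/Sv background, so the deletion and the background cannot be told apart in any comparison of genotypes.

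Plasminogen activators are serine proteases that cut the circulating proenzyme plasminogen into plasmin, which digests fibrin and other matrix proteins and can release growth factors held in the matrix. Urokinase, encoded by Plau, acts largely at the cell surface, where the receptor encoded by Plaur binds it, while the tissue-type activator encoded by Plat is known for its activity on fibrin clots. Serpins, a family of protease inhibitors, trap both activators in inactive complexes: the Serpine2 product, protease nexin-1, is secreted and also inhibits thrombin, and the Serpinb2 product is a mostly intracellular inhibitor of urokinase. Urokinase and its receptor are known to be induced at the edges of epithelial wounds.

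The 5 genes were unevenly expressed at the start. At 0 h PCS, Plat had 15.8 ± 2.01 FPKM in WT LCs (SD, n = 3) while no other member averaged over 1.65 FPKM in either genotype. FPKM count sequenced fragments relative to transcript length and library size, so levels of different genes can be set side by side. By 24 h PCS the order had changed in both genotypes: Plaur and Plat had the highest FPKM, with overlapping libraries, Plau followed, and Serpine2 and Serpinb2 were lowest. Of the neighbours in that order, Serpine2 and Serpinb2 overlapped in WT LCs (means of 1.96 and 1.29 FPKM) but not in β8ITG-cKO LCs (1.77 and 0.612 FPKM).

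**Figure D1:**
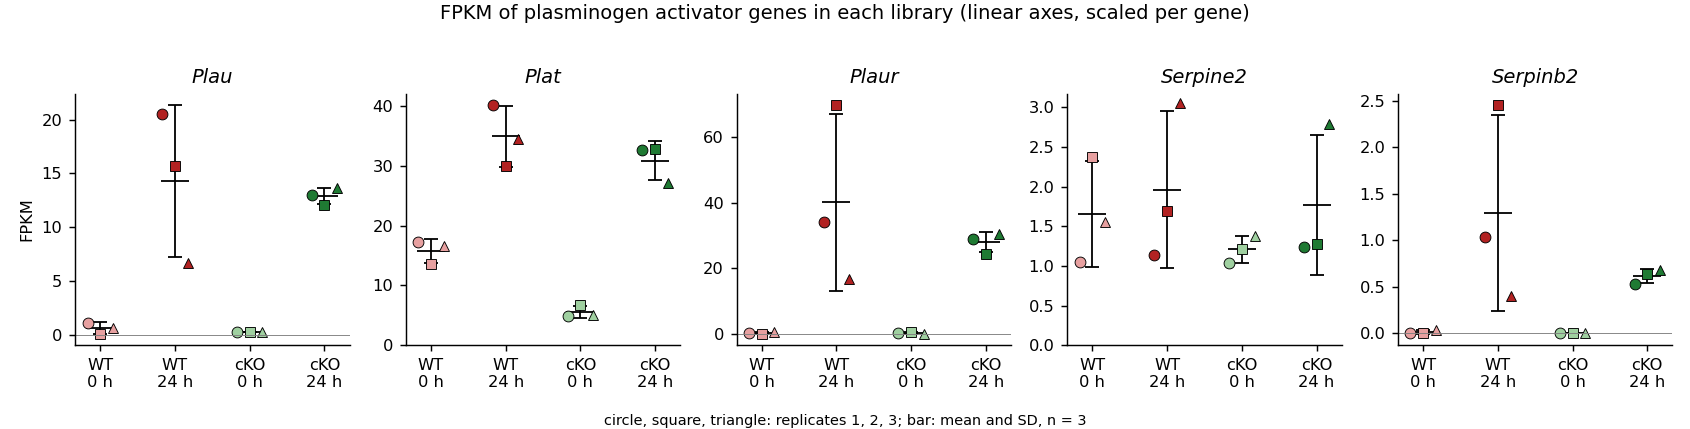
FPKM of the 5 genes in each library (y axis, linear, scaled per gene) against condition (x axis; WT and β8ITG-cKO, written cKO, at 0 h and 24 h PCS); points are libraries, marked by replicate number, and bars are the mean and SD of 3 libraries. Plau and Plaur rise from near 0 in both genotypes, Plat starts lower in the β8ITG-cKO and overlaps WT at 24 h, and Serpine2 stays between 1.04 and 3.06 FPKM.

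Several libraries stood apart and bear on the values below. WT 0 h replicate 2 listed the crystallin gene Cryaa at 0, against 8390 FPKM or more in the other 11 libraries, so an exact 0 in these tables can be a failed estimate and is given only as listed. Its 9 retinal markers summed to 1110 FPKM, against 330 and 131 FPKM in the other WT 0 h libraries. At 24 h the same markers summed to 811 to 957 FPKM in the β8ITG-cKO and to 70.2 to 130 FPKM in WT. In WT 24 h replicate 3, 5 corneal epithelial markers summed to 56.3 FPKM, against 13.2 and 5.68 FPKM in the other WT 24 h libraries. All 7 lens epithelial markers were detected in every condition. The libraries summed to between 446531 and 740140 FPKM, of which the 10 highest genes held 36.0% to 49.6%, and relative depth, read from the steps between low values, from 0.872 to 1.10. Itgb8 itself had 4.58 to 11.8 FPKM in all 12 libraries; gene-level FPKM cover all of its exons and only 1 is deleted, so they do not check the genotype.

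Promoters are shown for 3 of the 5 genes, to set those of Plaur and Serpinb2, whose RNA was near 0 at 0 h and present at 24 h, beside that of Serpine2, whose RNA did not pass a test in any comparison. They are RefSeq sequences on GRCm38.p6, from 250 bases before to 50 after an annotated start; Plau and Plat were not matched. Which start the LCs used was not measured. Capitals mark matches on either strand to the AP-1 motif TGANTCA, the Sp1 GC box GGGCGG and the TATA box TATAAA.
Plaur, chr7:24462233-24462532, plus strand: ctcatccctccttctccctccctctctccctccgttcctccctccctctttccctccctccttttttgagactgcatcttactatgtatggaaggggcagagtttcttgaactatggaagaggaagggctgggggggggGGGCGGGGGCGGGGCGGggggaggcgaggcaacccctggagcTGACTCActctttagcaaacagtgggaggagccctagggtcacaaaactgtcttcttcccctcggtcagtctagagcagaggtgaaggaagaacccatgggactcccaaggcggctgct
Serpinb2, chr1:107511173-107511472, plus strand: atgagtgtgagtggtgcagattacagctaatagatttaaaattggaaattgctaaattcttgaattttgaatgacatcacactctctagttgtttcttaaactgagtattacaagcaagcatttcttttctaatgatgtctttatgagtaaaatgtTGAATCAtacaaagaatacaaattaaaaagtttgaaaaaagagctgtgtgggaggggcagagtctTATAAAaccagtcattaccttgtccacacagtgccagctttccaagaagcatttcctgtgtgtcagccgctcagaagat
Serpine2, chr1:79858616-79858915, minus strand: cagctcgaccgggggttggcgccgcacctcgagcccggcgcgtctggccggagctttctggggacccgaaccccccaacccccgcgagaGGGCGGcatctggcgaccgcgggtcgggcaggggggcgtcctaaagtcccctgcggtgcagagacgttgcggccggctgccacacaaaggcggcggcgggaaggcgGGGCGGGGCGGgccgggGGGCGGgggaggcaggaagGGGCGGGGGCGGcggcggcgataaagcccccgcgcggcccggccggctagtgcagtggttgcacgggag
The Plaur window held 1 AP-1 match, TGACTCA, starting at -69 from the annotated start, and GC boxes at -111, -105 and -100. The Serpinb2 window held an AP-1 match, TGAATCA, at -94 and a TATA box at -29. The window of another annotated start, chr1:107511260-107511559, held the same matches. The Plaur and Serpinb2 windows lie inside the gene spans given below, so the first bases of those spans are not covered. The Serpine2 window held 6 GC boxes, at -161, -55, -50, -38, -19 and -13, and none of the other letters; it also held the reverse complement of CAGAC, a partial SMAD site, at -209. The boxes at -105 and -100 of Plaur, and at -55 and -50 of Serpine2, share a base. AP-1 is the dimer of Fos and Jun family proteins, Sp1 binds GC-rich promoters of many genes, and SMAD proteins carry TGF-β signals to DNA. Among 32544 RefSeq promoters of the same length, 7.79% held the AP-1 motif, 35.9% a GC box, 13.6% a TATA box and 49.5% the SMAD motif. GC content was 59.3% for Plaur, 35.3% for Serpinb2 and 77.7% for Serpine2, against a median of 53% over all promoters. These matches are letters in a window and do not show binding.

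The first comparison asked how WT LCs changed between 0 h and 24 h PCS. Plau, Plat and Plaur rose and Serpine2 did not pass the test. Genes averaging 0.5 FPKM or more were fitted with limma-trend on log2(FPKM + 1), and p was adjusted after Benjamini and Hochberg. To be called, a gene needed an adjusted p no higher than 0.05, group means more than 2-fold and more than 2 FPKM apart, and a mean of 2 FPKM or more in either group. All 5 members were tested among 15146 genes, and 3 were called higher, against 10.3% of all genes tested. The members that did not overlap between 0 h and 24 h were Plau, Plat, Plaur and Serpinb2, and 31.3% of all genes tested were higher without overlap. Plaur and Serpinb2 averaged 0.179 and 0.0121 FPKM at 0 h and passed the filter only through 24 h. Their direction was thus set in advance, and their place in these counts, their p and their rank give no support for a rise.

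Plaur, the urokinase receptor (chr7:24460937-24475968, plus strand, GRCm38), had the largest change. In WT LCs it had 0.0759, 0 and 0.462 FPKM at 0 h, then 34.0, 69.7 and 16.7 FPKM at 24 h. Every 24 h library lay far above every 0 h library, but the 24 h values themselves spread widely, with replicate 2 the highest and replicate 3 the lowest. The change was 4.92 on the log2(FPKM + 1) scale (SE 0.45, 95% interval 3.88 to 5.96, adjusted p = 0.000511), the 11th highest of 15146 genes. The fold of means was 224, set by 0 h values near 0.

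Plau (chr14:20836662-20843388, plus strand), the gene of the receptor's ligand, had 1.11, 0.0746 and 0.646 FPKM at 0 h and 20.5, 15.7 and 6.62 FPKM at 24 h in WT LCs. The groups did not overlap, and replicate 3 was again the lowest at 24 h. The change was 3.17 (SE 0.41, 95% interval 2.23 to 4.11, adjusted p = 0.00176), or 23.4-fold on the means, and ranked 83 of 15146 by size of rise. Leaving out WT 0 h replicate 2 gave 2.91 and leaving out WT 24 h replicate 3 gave 3.61, and the same steps gave 4.81 and 5.42 for Plaur.

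Plat (chr8:22757722-22782848, plus strand), the gene of the tissue-type activator, was the member clearly expressed at 0 h. Its WT libraries had 17.2, 13.5 and 16.6 FPKM at 0 h and 40.2, 30.0 and 34.5 FPKM at 24 h. The change was 1.09 (SE 0.16, adjusted p = 0.00315), or 2.21-fold. All WT genes shifted by a median of 0.158, and once FPKM were rescaled to the same median the change was 0.84 (adjusted p = 0.0151), which no longer met the criterion on the fold. The rescaling also moved the split of called genes from 1566 higher and 593 lower to 982 and 961.

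The inhibitors behaved differently from one another. Serpinb2 (chr1:107500892-107525600, plus strand), the gene of the intracellular inhibitor, was listed at 0, 0 and 0.0363 FPKM before and had 1.03, 2.45 and 0.398 FPKM at 24 h in WT LCs. The groups did not overlap, and the order of the 24 h libraries was that of Plaur. The change of 1.08 (SE 0.32) passed the adjusted p alone (0.0370), as did 20.9% of all genes tested in this direction, but stayed under the criteria on level. It missed the threshold with no filter on low values (adjusted p = 0.0894) and without any 1 of the WT 0 h libraries (0.0845 to 0.1) or WT 24 h replicate 1 (0.0711). Plaur and Serpinb2 passed the filter only through their 24 h libraries, so they had to differ.

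Serpine2 (chr1:79794317-79858665, minus strand), the gene of protease nexin-1, had 1.05, 2.37 and 1.55 FPKM at 0 h and 1.14, 1.69 and 3.06 FPKM at 24 h in WT LCs. The groups overlapped, and the highest library was replicate 2 at 0 h and replicate 3 at 24 h. The change was 0.14 (SE 0.29, 95% interval -0.52 to 0.80, adjusted p = 0.744), close to the median of 0.158 of all genes. Its sign turned on rescaling (-0.02) and without WT 24 h replicate 3 (-0.12).

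In bulk RNA, fewer cells of a type and less RNA per cell cannot be told apart, and the summed markers of immune cells were higher at 24 h than at 0 h. In WT LCs the 10 macrophage markers, all in the tables, summed to 9.44 to 18 FPKM at 0 h and 31.2 to 54.5 FPKM at 24 h, and the 10 neutrophil markers to 0.511 to 0.795 and 44.8 to 62.7 FPKM, with Ly6g, Mpo, Elane and Ngp listed at 0 in both. The 5 platelet markers went from 2.39 to 6.20 FPKM up to 10.3 to 16.1 FPKM. In β8ITG-cKO LCs the macrophage sums were 9.36 to 16 and then 35.6 to 56 FPKM, the neutrophil sums 0.542 to 1.41 and then 12.1 to 34.1 FPKM with Ly6g, Mpo and Elane listed at 0, and the platelet sums 1.68 to 3.34 and then 9.32 to 16 FPKM. Of the 10 macrophage markers, Cd68 and Cd14 were called higher in WT LCs, and these and Lyz2 and C1qa in β8ITG-cKO LCs. Csf1r, another of them, had 2.15, 2.72 and 1.47 FPKM at 0 h and 1.68, 2.07 and 1.77 FPKM at 24 h in WT LCs. Of the neutrophil markers, Csf3r, S100a8 and S100a9 were called higher in both genotypes and Cxcr2 in WT LCs only. No platelet marker was called in WT LCs, and Pf4 alone was in β8ITG-cKO LCs. The platelet marker Gp1ba had 1.05, 0.801 and 0.832 FPKM at 0 h and 0.629, 0.318 and 0.345 FPKM at 24 h in WT LCs. The sums thus rest on few of the markers. In WT 24 h replicate 3, which had the lowest Plau, Plaur and Serpinb2, the macrophage sum was the lowest of its group through Lyz2 and Cd14, while Cd68 (9.03 FPKM) and the platelet sum (16.1 FPKM) were the highest. The part of these cells in the rises was not tested.

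The second comparison asked how β8ITG-cKO LCs changed over the same 24 h. Again Plau, Plat and Plaur rose, 3 of the 4 members tested among 15237 genes, against 11.3% of all genes called higher. Plau, Plat, Plaur and Serpinb2 did not overlap between the times, and 42.9% of all genes tested were higher without overlap. Plau and Plaur averaged 0.251 and 0.194 FPKM at 0 h and passed the filter here only through 24 h. Their direction was thus set in advance, and their place in these counts, their p and their rank give no support for a rise.

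Plaur went from 0.174, 0.382 and 0.0261 FPKM to 29.0, 24.4 and 30.5 FPKM, a change of 4.61 (SE 0.15, 95% interval 4.27 to 4.95, adjusted p = 2.04e-06), again the 11th highest. Plau went from 0.284, 0.262 and 0.208 FPKM to 13, 12.1 and 13.6 FPKM, a change of 3.47 (SE 0.11, 95% interval 3.22 to 3.72, adjusted p = 1.85e-06) and 51.4-fold on the means. Both were tightly grouped at 24 h, with an SD of 3.17 FPKM for Plaur against 27.0 in WT LCs and of 0.721 FPKM for Plau against 7.05; whether the spreads differ was not tested.

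Plat went from 4.92, 6.70 and 4.99 FPKM to 32.6, 32.8 and 27.1 FPKM, every 24 h library being above every 0 h library. The change was 2.29 (SE 0.14, 95% interval 1.97 to 2.61, adjusted p = 2.37e-05), or 5.57-fold, and ranked 230 of 15237. All genes shifted by a median of 0.228 here, and rescaled to the same median Plat changed by 2.01 and was still called. The rescaling moved the split of called genes from 1719 higher and 575 lower to 1172 and 877.

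Serpine2 had 1.04, 1.21 and 1.38 FPKM and then 1.24, 1.28 and 2.79 FPKM, a change of 0.28 (SE 0.22, 95% interval -0.22 to 0.78, adjusted p = 0.320). Replicate 3 at 24 h stood above all others, and the rest overlapped. In both genotypes the highest Serpine2 at 24 h was in replicate 3, where 5 corneal stroma markers also summed highest (1100 FPKM and, for the β8ITG-cKO, 1170 FPKM, against 569 to 763 FPKM in the other 24 h libraries; Kera, a defining marker, was listed at 0 in all 24 h libraries). In replicate 3 of WT and of the β8ITG-cKO, Ptgds (712 and 980 FPKM) and Aldh3a1 (392 and 189 FPKM) made up nearly all of these sums. Dcn had 0.374 and 0.244 FPKM there, and Lum 0.305 and 0.0183 FPKM. At 0 h the 5 markers summed to 685 to 929 FPKM in WT, beside 1.05 to 2.37 FPKM of Serpine2. In the β8ITG-cKO they summed to 1160 to 1440 FPKM, beside 1.04 to 1.38 FPKM. Their part in the Serpine2 values was not tested.

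Serpinb2 was listed at 0 in all 3 β8ITG-cKO 0 h libraries and had 0.528, 0.632 and 0.677 FPKM at 24 h. It stayed below the filter and was not tested. With no filter, and hence past it by its 24 h values alone, its change was 0.69 (SE 0.06, adjusted p = 0.000988).

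**Figure D2:**
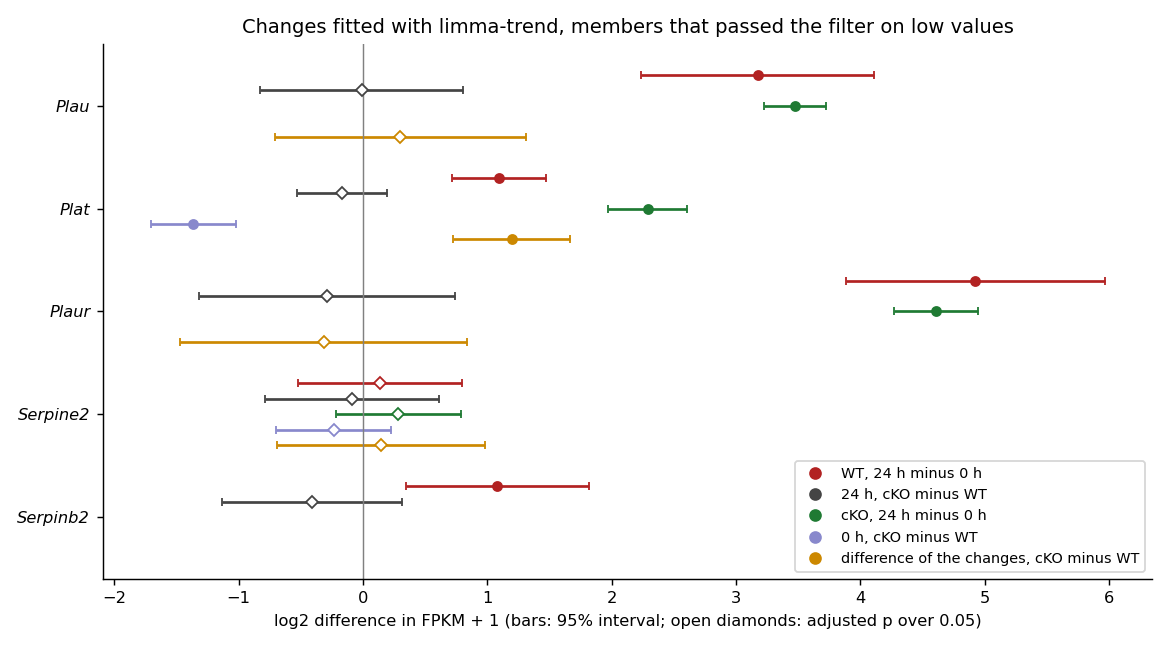
Fitted change of each gene that passed the filter (x axis, log2 of FPKM + 1; bars are 95% intervals) in the 4 comparisons and in the difference between the changes of the genotypes. Filled points have an adjusted p of at most 0.05. The rises of Plaur (4.92 and 4.61) and Plau (3.17 and 3.47) lie close in WT and β8ITG-cKO LCs, those of Plat (1.09 and 2.29) lie apart, and all differences between genotypes at 24 h span 0.

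The third comparison asked whether the genotypes differed at 24 h PCS, when both had responded. None of the 5 members was called, against 3.66% of 15366 genes tested. None had an unadjusted p under 0.05 in limma, as 3137 of those genes had, and the lowest was 0.227 for Serpinb2. All 5 members overlapped between the genotypes, whereas 26.5% of all genes tested did not. The difference was -0.01 for Plau (95% interval -0.83 to 0.81, adjusted p = 0.990) and -0.29 for Plaur (-1.32 to 0.74, adjusted p = 0.765). With a WT SD of 7.05 FPKM for Plau and 27.0 FPKM for Plaur, a difference of any size within these intervals is compatible with the data. Plat had the narrowest interval, at -0.17 (-0.53 to 0.19, adjusted p = 0.589). Serpine2 differed by -0.09 (-0.79 to 0.61, adjusted p = 0.901) and Serpinb2 by -0.41 (-1.14 to 0.32, adjusted p = 0.514).

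Single libraries moved the receptor and urokinase values. Without WT 24 h replicate 3, the lowest of its group, Plau differed by -0.45 (adjusted p = 0.125), Plaur by -0.79 (adjusted p = 0.158) and Serpinb2 by -0.72 (adjusted p = 0.139). Without WT 24 h replicate 2, the highest for Plaur, Plaur differed by 0.21 (adjusted p = 0.765). No call was made in either case.

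The fourth comparison, of the genotypes at 0 h PCS, set the capsules side by side at the time of surgery. Plat was lower in β8ITG-cKO LCs, with 4.92, 6.70 and 4.99 FPKM against 17.2, 13.5 and 16.6 FPKM in WT LCs. The highest β8ITG-cKO library was below the lowest WT library. Of all genes tested, 30.8% did not overlap between the genotypes, in either direction. The difference was -1.36 (SE 0.15, 95% interval -1.71 to -1.02, adjusted p = 0.00383), with a 2.85-fold higher mean in WT, and Plat was 1 of 2 members tested, against 2.52% of 14708 genes called. Leaving out each library in turn gave -1.49 to -1.30 (adjusted p 0.00514 to 0.0293), and -1.47 without WT 0 h replicate 2.

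Sums of 4 marker lists did not overlap between these groups either. The 5 red blood cell markers summed to 68 to 153 FPKM in WT but 6.52 to 15.8 FPKM in the β8ITG-cKO at 0 h, and the 6 markers of iris and ciliary pigment cells to 19.9 to 84 and 11.5 to 15.5 FPKM, with none listed at 0 throughout a group. The 5 corneal stroma markers summed to 685 to 929 FPKM in WT and to 1160 to 1440 FPKM in the β8ITG-cKO. Kera and Lum were near 0 in WT and listed at 0 in the β8ITG-cKO. That gap lay in Aldh3a1 (264, 208 and 248 FPKM in WT, 911, 535 and 756 FPKM in the β8ITG-cKO). Ptgds overlapped, and Dcn was lower in the β8ITG-cKO (2.78, 1.91 and 2.5 FPKM in WT against 0, 0.174 and 0.106 FPKM). The 6 lens fiber markers summed to 3630 to 4960 and 5040 to 5540 FPKM. Crygs, Mip and Lim2 were higher in the β8ITG-cKO without overlap, and Bfsp1, Bfsp2 and Lgsn overlapped. The part of these markers in the Plat difference was not tested. The 7 markers of endothelium, a tissue known to make this activator, overlapped at 0 h (4.97 to 8.49 FPKM in WT, 6.44 to 9.46 FPKM in the β8ITG-cKO).

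Serpine2 differed by -0.23 at 0 h (SE 0.20, 95% interval -0.70 to 0.23, adjusted p = 0.510). Plau, Plaur and Serpinb2 were below the filter at 0 h and were not tested. Their 0 h values overlapped between the genotypes.

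The difference between the genotypes' changes was tested as an interaction in a fit over all 12 libraries. Of the 4 members tested, Plat passed (1.20, SE 0.21, 95% interval 0.73 to 1.66, adjusted p = 0.0085), against 9.39% of 15262 genes. Its rise was larger in β8ITG-cKO LCs, from a lower start to an overlapping level. The sum of the 7 endothelial markers also differed at 24 h, being 1.94 to 4.05 FPKM in WT and 9.17 to 10.9 FPKM in the β8ITG-cKO, without overlap, and Kdr, the gene of a vascular growth factor receptor, passed the interaction test (2.19, adjusted p = 0.0261), while Egfl7, the other of these markers tested, did not (0.12, adjusted p = 0.862). The 9 retinal markers summed higher in the β8ITG-cKO at 24 h too (811 to 957 FPKM, against 70.2 to 130 FPKM in WT). Sums of lens epithelial, neutrophil, pigment cell and corneal epithelial markers were lower there, without overlap. The part of all these markers in the Plat values at 24 h and in its interaction was not tested. The interaction was 1.10 to 1.32 when each library was left out in turn (adjusted p 0.00845 to 0.0271) and 1.17 after rescaling. Plau (0.30, SE 0.46, adjusted p = 0.744), Plaur (-0.32, SE 0.53, adjusted p = 0.764) and Serpine2 (0.15, SE 0.38, adjusted p = 0.858) did not pass, with 95% intervals of -0.71 to 1.31, -1.47 to 0.84 and -0.69 to 0.98. Serpinb2 was below the filter.

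Ratios within a library do not depend on how libraries were scaled. Plau made up 6.03%, 0.549% and 3.74% of the summed FPKM of Plau and Plat in the WT 0 h libraries and 33.8%, 34.4% and 16.1% at 24 h. In β8ITG-cKO LCs the share was 5.45%, 3.76% and 4% at 0 h and 28.5%, 27.0% and 33.4% at 24 h. Urokinase RNA was thus the minor activator RNA in every library, with a share that did not overlap between the times in either genotype.

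The rise of the share was 24.6 percentage points in WT and 25.2 in β8ITG-cKO LCs, each with p = 0.1 by a two-sided exact permutation test, the smallest that 3 against 3 libraries allow, and 0.2 after Benjamini-Hochberg adjustment over 10 tests of ratios. At 24 h the genotypes' shares were 28.1% ± 10.4 and 29.6% ± 3.32 (SD, n = 3; exact p = 1).

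The log2 ratio of summed activators to Serpine2 was 3.38 ± 0.808 in WT and 2.25 ± 0.312 in β8ITG-cKO LCs at 0 h (SD, n = 3; exact p = 0.1, adjusted 0.2). At 24 h it was 4.75 ± 0.994 and 4.73 ± 0.749 (exact p = 1, n = 3). The change over time was 2.48 in β8ITG-cKO LCs (exact p = 0.1), where the libraries did not overlap, and 1.37 in WT LCs (exact p = 0.2), where they did. Plaur exceeded Plau by a log2 ratio of 0.731, 2.15 and 1.34 in the WT 24 h libraries and 1.16, 1.01 and 1.17 in the β8ITG-cKO 24 h libraries. Each of the 6 libraries thus had more receptor than urokinase RNA per length, and the genotypes overlapped (difference -0.294, exact p = 0.7).

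**Figure D3:**
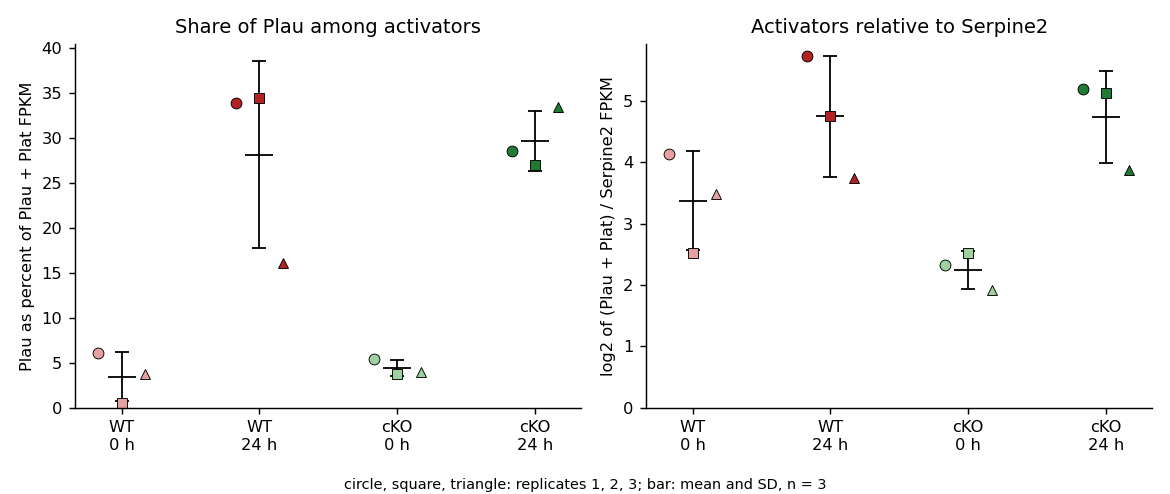
Left, Plau as a percent of the summed FPKM of Plau and Plat; right, log2 of that sum over Serpine2 (y axes) in each library of the 4 conditions (x axis), with the mean and SD of 3 libraries as bars. The Plau share lies at 0.549% to 6.03% at 0 h and 16.1% to 34.4% at 24 h, and the ratio to Serpine2 has means of 4.75 and 4.73 in the genotypes at 24 h.

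Other genes of the system were read from a list of 20 genes, drawn up for plasminogen, its receptors, clearance and inhibition. The list also held Pdpn, which is none of these, so the counts over the list include it. Plg, the gene of plasminogen itself and known as a liver product, was listed at 0 in 11 libraries and at 0.0237 FPKM in WT 0 h replicate 2. In WT LCs over time 11 of the 20 were tested, 5 were called higher and 2 lower, although the median change was -0.23 against 0.158 over all genes, of which 10.3% were called higher and 3.92% lower. Those higher were Anxa2 (log2 change 2.72) and S100a10 (0.997), whose products form the annexin A2 complex that binds plasminogen and the tissue-type activator at the cell surface, the plasminogen receptor gene Plgrkt (0.902), the membrane glycoprotein gene Pdpn (1.48) and the gene of the intracellular serpin Serpinb6a (1.41). After rescaling 3 were called, since S100a10 and Plgrkt missed the criterion on the fold. Those lower were Vtn (-1.81), the gene of vitronectin, a matrix protein that binds the urokinase receptor, and Lrpap1 (-1.0), the gene of a chaperone of LDL receptor family proteins that clear protease and inhibitor complexes.

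In β8ITG-cKO LCs over time 12 of the 20 were tested, and Anxa2 (1.46) and Vtn (1.25) were called higher and Lrpap1 (-1.14) lower, against 11.3% and 3.77% of all genes. The median was 0.54 against 0.228 over all genes, and 8 of the 12 passed the adjusted p alone, against 46.1% of all genes. Between the genotypes at 24 h Vtn was the only one of 11 called (3.37% of all genes were called higher). Pdpn was lower in the β8ITG-cKO (-0.921, limma adjusted p = 0.00837, means of 114 against 217 FPKM) but missed the criterion on the fold. With Vtn, 2 of the 11 passed the adjusted p alone, against 6.29% of all genes. Of the 11, 8 had an unadjusted p under 0.05, as had 3137 of all 15366 genes tested. At 0 h none of 12 was called by limma, while 2 passed the adjusted p alone, against 6.94% of all genes. There 5 had an unadjusted p under 0.05, as had 3525 of all 14708 genes tested.

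In WT LCs Vtn went from 17.9, 34.1 and 13.3 FPKM to 2.68, 8.21 and 5.56 FPKM, and in β8ITG-cKO LCs from 11.9, 6.55 and 9.77 FPKM to 21.4, 20.9 and 28.1 FPKM. It fell in WT (adjusted p = 0.0146, but 0.0564 with no filter) and rose in β8ITG-cKO LCs, without overlap in either, and the interaction was 3.06 (SE 0.51, adjusted p = 0.00737). At 24 h it was 2.00 higher in β8ITG-cKO LCs (adjusted p = 0.0111; 0.0535 without β8ITG-cKO 24 h replicate 3). The 9 retinal markers summed highest in the same libraries (1110 FPKM in WT 0 h replicate 2, and 811 to 957 FPKM for the β8ITG-cKO at 24 h), and their part in the Vtn values was not tested.

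Anxa2 went from 57.7, 49.2 and 63.0 FPKM to 401, 449 and 299 FPKM in WT LCs, against 102, 86.3 and 107 FPKM and then 273, 302 and 241 FPKM in β8ITG-cKO LCs. It rose in both genotypes and by less in the β8ITG-cKO (interaction -1.26, SE 0.24, adjusted p = 0.00985). Pdpn (-0.805, adjusted p = 0.0103) and Plgrkt (-0.918, adjusted p = 0.0369; over 0.05 in 10 of 18 alternatives) passed the interaction test in the same direction. With Vtn these were the 4 of 11 listed genes that passed it, against 9.39% of all genes.

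**Figure D4:**
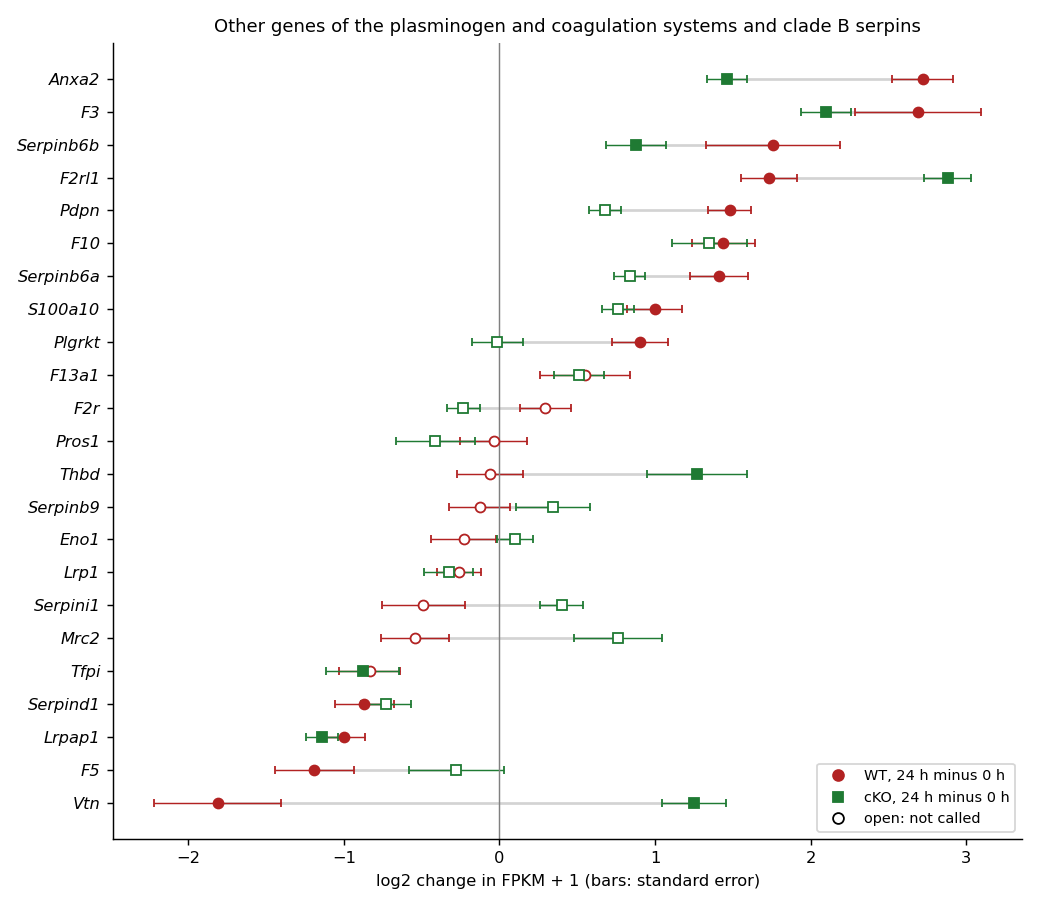
Change from 0 h to 24 h PCS (x axis, log2 of FPKM + 1; bars are standard errors) in WT LCs (circles) and β8ITG-cKO LCs (squares) for the 23 listed genes of the plasminogen and coagulation systems and clade B serpins tested in both; filled points were called. Vtn lies at -1.81 and 1.25, Anxa2 at 2.72 and 1.46 and F2rl1 at 1.73 and 2.88.

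For each member, the 3 genes whose log2 values ran most alike over the 12 libraries were found among 10880 genes averaging 2 FPKM or more, by Pearson's r. The points share 4 conditions, so a like response to time is enough for a high r, and no test is given. Plaur ran most like Tnc (r = 0.995), the gene of the matrix protein tenascin C, which averaged 0.604 and 123 FPKM at 0 h and 24 h in WT LCs and 0.514 and 85.5 FPKM in the β8ITG-cKO. Next were Il1rn (0.993), the gene of the interleukin-1 receptor antagonist, and Ddx39 (0.992), that of an RNA helicase. Among the 3 nearest to Plau were Lrrc8c (0.991) and Arf6 (0.989), the gene of a small GTPase of membrane traffic.

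Plat ran most like Rell1 (0.973), Net1 (0.971) and Osmr (0.970), the gene of the oncostatin M receptor. These had lower 0 h means in the β8ITG-cKO too, as with Osmr (3.41 FPKM in WT, 1.05 in the β8ITG-cKO). Serpinb2 ran most like Fermt2 (0.976), Eif2s2 (0.975) and 3110082I17Rik (0.975), all of which were expressed at 0 h. The nearest to Serpine2 were Cyp4f15 (0.912), Cnppd1 (0.896) and LOC102636299 (0.871), with lower values of r than the nearest of any other member.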

How the data were processed

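Stranded total RNA libraries were made from low input and sequenced. The submitters' processing notes name cutadapt 1.12, TopHat2 2.1.0, Cuffdiff 2.2.1 and mm10 (GRCm38.p5). The annotation, and whether counting used strand, are not given in the sources used here. The authors deposited FPKM per library and gene in 4 tables, each a pair of conditions, in which a library's values were identical. Their group values (8 columns), fold changes and p-values were not used. FPKM hold no read counts, so no counting precision can be given.

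Members and lists were chosen with earlier results of these data known. Named genes were the members and the called genes of each list. Values of some other genes of the system are not reported here. Tests used limma 3.58.1 (limma-trend, R 4.3.3) on log2(FPKM + 1), genes averaging 0.5 FPKM or more and Benjamini-Hochberg adjustment, after checks on simulated data. No source says whether libraries shared mice, so p-values measure the spread between libraries. Ratios took exact permutation tests; the ratio of Plaur to Plau had no value in WT at 0 h, so 10 of 12 planned tests were made. Alternatives changed the pseudocount, filter, scaling, fit, threshold, block and each library. Of 17 symbols listed more than once, none was a member.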

Additional observations from a re-analysis of the deposited data

Results flagged for a closer look

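The change from 0 h to 24 h PCS differed between the genotypes, by the interaction in limma over 12 libraries, for Plat and 5 listed genes. Plat rose by 1.20 more on the log2 scale in β8ITG-cKO LCs, where its 0 h level was lower. Vtn differed by 3.06, falling in WT and rising in β8ITG-cKO LCs, and F2rl1, the gene of a protease-activated receptor, by 1.15, with 1.37 to 1.85 FPKM and then 6.22 to 9.19 FPKM in WT LCs and 0.696 to 0.720 FPKM and then 9.19 to 13.3 FPKM in β8ITG-cKO LCs. Anxa2 (-1.26), Plgrkt (-0.918) and Pdpn (-0.805) rose less in β8ITG-cKO LCs or, for Plgrkt, had similar 0 h and 24 h means there (4.32 and 4.27 FPKM).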

How the results depend on the processing

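Of 272 values for the members under alternative settings, 250 kept their direction and side of the threshold. No called member lost its adjusted p, and Plat in WT LCs lost the criterion on the fold on rescaling. Serpinb2 in WT LCs, which passed the adjusted p alone, lost it in 6. The other 16 turned sign, all of uncalled values. Serpine2 over time in WT LCs turned on rescaling (-0.0192), and without single libraries ranged from -0.12 to 0.35. At 24 h, Plau turned with a pseudocount of 0.1 (0.000328), and leaving out single libraries gave -0.45 to 0.30 for Plau, -0.79 to 0.21 for Plaur and -0.34 to 0.16 for Serpine2. The interaction ranged likewise from -0.14 to 0.61 for Plau, -0.81 to 0.18 for Plaur and -0.10 to 0.40 for Serpine2. Without single libraries the genotype difference at 24 h in the log2 ratio of activators to Serpine2 ran from -0.517 to 0.477, in that of Plaur to Plau from -0.632 to 0.0786 and in the Plau share from -4.43 to 4.69 percentage points, and the share at 0 h from -0.484 to 2.26. The cause of these turns was not tested.

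Counts over all genes moved more. The adjusted p alone passed 4500 genes in WT LCs over time (2159 called), 7030 in β8ITG-cKO LCs (2294 called), 966 between the genotypes at 24 h (562 called) and 1020 at 0 h (371 called). With no filter 130 were called at 0 h. The interaction passed 1433 genes, 930 with a filter of 2 FPKM and 947 when a size over 1 was asked. Leaving out single libraries gave 371 (without β8ITG-cKO 24 h replicate 2) to 638 at 24 h, 125 (without β8ITG-cKO 0 h replicate 3) to 378 at 0 h and 688 (without β8ITG-cKO 0 h replicate 2) to 1921 for the interaction. Of 29 calls of listed genes, 7 lost the adjusted p in at least 1 alternative.

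No pairing by replicate number was visible: deviations of same-numbered libraries from their group means correlated at -0.218 to 0.0813. With 3 libraries per group, this does not settle whether libraries shared mice. With the replicate block, 224 genes were called at 0 h, Serpinb2 in WT LCs had an adjusted p of 0.0519, and no member's call changed.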

Other observations

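Coagulation and clade B serpin genes, which act beside the plasminogen system, were read from further lists. Of 23 genes of coagulation and thrombin receptors, 12 were tested in WT LCs over time, with 3 called higher and 2 lower, against 10.3% and 3.92% of all genes, and a median change of 0.129 against 0.158 over all genes. F3, the gene of tissue factor, which starts clotting, had 2.27, 1.23 and 2.31 FPKM at 0 h and 9.82, 34.7 and 15.7 FPKM at 24 h in WT LCs (log2 change 2.69), and 1.29 to 1.45 FPKM and then 6.91 to 10.6 FPKM in β8ITG-cKO LCs (2.1). F2rl1 (1.73) and F10 (1.44) were the others called higher in WT LCs, and F5 (-1.19) and Serpind1 (-0.868), genes of a clotting cofactor and of the inhibitor heparin cofactor II, were called lower. In β8ITG-cKO LCs 10 were tested, with F2rl1 (2.88), F3 (2.1) and Thbd (1.27), the gene of thrombomodulin, called higher and Tfpi (-0.880), the gene of an inhibitor of tissue factor, called lower, against 11.3% and 3.77% of all genes; the Tfpi call was lost in 5 of 13 alternatives. F10 (1.35) and Serpind1 (-0.732) passed the adjusted p in β8ITG-cKO LCs too, and Tfpi (-0.835) in WT LCs, without meeting the other criteria. Of 10 tested for the interaction, F2rl1 was the only 1 to pass, against 9.39% of all genes. None of 11 was called by limma between the genotypes at 24 h, where 3.66% of all genes were. Of the 11, 3 had an unadjusted p under 0.05, as had 3137 of all 15366 genes tested. At 0 h, F2r, the gene of a thrombin receptor, was 1 of 10 called, against 2.52% of all genes, with 49.4 to 59.2 FPKM in β8ITG-cKO against 21.9 to 26.0 FPKM in WT LCs (1.10, adjusted p = 0.00332).

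Of 27 clade B serpin genes other than Serpinb2, 3 were tested in WT LCs over time, and Serpinb6b (1.76) and Serpinb6a (1.41) were called higher, against 10.3% of all genes. These are close paralogs, so how reads were shared between them is uncertain. The Serpinb6b rise in WT LCs was lost in 3 of 13 alternatives (adjusted p up to 0.0698). In β8ITG-cKO LCs Serpinb6b rose by 0.878. On rescaling, that rise and the F10 rise in WT LCs no longer met the criteria. Serpinb6b already had 2.65, 2.2 and 2.7 FPKM in the β8ITG-cKO at 0 h, against 8.7, 3.74 and 5.48 FPKM in WT. That difference did not pass in limma (-0.927, adjusted p = 0.063), and neither did the interaction (-0.886, adjusted p = 0.341). At 24 h the β8ITG-cKO had less Serpinb6b than WT (log2 difference -1.81; 5.61 ± 1.72 against 24.6 ± 15.6 FPKM, SD, n = 3; limma adjusted p = 0.0444), where 1 of 4 was called against 3.66% of all genes, and the call was lost in 7 of 13 alternatives (adjusted p up to 0.148).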
